A study of Mus musculus with 30 samples.

Results

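The voltage-gated sodium channel gene Scn8a, the fibroblast growth factor homologous factor (FHF) genes Fgf11, Fgf12, Fgf13 and Fgf14, and the pacemaker channel genes Hcn2 and Hcn3 were followed across 3 pools of mouse spinal motoneurons. The members were all probe sets that the array annotation assigns to these 7 genes by gene symbol. The genes themselves were chosen with earlier results of these data known. The members came to 10 of the 12422 probe sets tested, and 7 of the 8251 genes that a probe set of a single gene represented. Scn8a, Fgf11 and Hcn2 had 2 probe sets each and the other genes had 1 each. A probe set is a group of short oligonucleotides on the array designed to read the transcripts of a gene, and each is described on its own because probe sets of 1 gene can lie in different parts of its transcripts.

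Motoneurons of the intermediolateral column (IML), the autonomic preganglionic cells, and somatic motoneurons of the lateral (LMN) and medial (MMN) columns were taken by laser capture from the spinal cords of 5 adult mice. All animals were sham-operated controls, so every group carries the sham operation, and no strain, genotype or exact age is given in the sources used here. All 3 pools came from each animal, which gives 15 samples. The Pair number in the sample labels was taken as the number of the animal. RNA from 400 captures per pool was split, amplified in 2 rounds and hybridised to 2 Affymetrix arrays, which were averaged here. Values are log2 intensities, n is the number of animals, and a difference of 1 is a doubling. No detection calls were used, so it is unknown whether a dim probe set lies above background. Levels of different probe sets are not compared.

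Scn8a encodes Nav1.6, the sodium channel that is dense at the axon initial segment and the nodes of Ranvier and sets the threshold of the action potential in motoneurons. The FHF proteins resemble fibroblast growth factors but are not secreted and do not act through the growth factor receptors. They bind the intracellular carboxyl terminus of sodium channels and shift the voltage at which the channels inactivate and recover. Hcn2 and Hcn3 encode subunits of the cation channels that open on hyperpolarization and carry the current called Ih, which depolarizes neurons toward threshold.

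The captured pools were described with marker lists. These lists were chosen with earlier results of these data known, so they are not an independent check of the capture. The summed intensity of the 4 measured visceral motoneuron markers ran from 5083 to 7296 in IML, from 971 to 2507 in LMN and from 1374 to 2839 in MMN, with no overlap of IML and the somatic pools. The brightest gene of a list weighs most in its sum, here Penk. Adcyap1, Penk and Tac1 were higher in IML than in the somatic mean. Nos1, the other of the 4, was not called, at 0.01 ± 0.05 (SE) and higher in 2 of 5 animals. Of 8 general motoneuron markers 5 were measured, and their sums were 3372 to 6440 in IML, 4980 to 11979 in LMN and 4704 to 8643 in MMN. Nefh and Ret were lower in IML than in the somatic mean, and Slc18a3, Prph and Isl1 were not called. Chat, Slc5a7 and Mnx1, also on that list, had no probe set of their own. Sums of 12 meningeal and fibroblast markers were 21524 to 29261 in IML, 7564 to 20307 in LMN and 9720 to 32143 in MMN, and 7 of the 12 were higher in IML than in the somatic mean. Sums of 13 microglial and macrophage markers were 3026 to 5481 in IML, 2410 to 2814 in LMN and 2537 to 3451 in MMN, and 7 of the 13 were higher in IML. Of the astrocyte and the endothelial and mural cell markers 1 each was higher in IML, and of the oligodendrocyte and interneuron markers 0. Over all probe sets 3.44% were higher in IML than in the somatic mean. In the LMN sample of animal 2 the vesicular acetylcholine transporter gene Slc18a3 was at 7.12 and the peripherin gene Prph at 8.19, each the lowest of the LMN samples, and results that change without that sample are given both ways. The part of these marker differences in the results on the channel and FHF genes was not tested. Fewer cells of a type and less RNA per cell cannot be told apart in captured pools.

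Against the mean of the somatic pools, 3 of the 10 member probe sets passed an adjusted p of 0.05, where 5.52% of all probe sets passed. Probe sets 104504_at of Scn8a and 95377_at of Fgf11 were lower in IML, a direction in which 2.09% of all probe sets passed, and Fgf13 was higher, as were 3.44% of all. Against LMN alone 3 of 10 passed, again Scn8a and Fgf11 lower and Fgf13 higher, beside 8.98% of all probe sets (3.53% lower and 5.46% higher). Against MMN alone 1 of 10 passed, Fgf11, beside 0.346% of all. Between LMN and MMN 0 of 10 passed in the limma fit, beside 0.0564% of all probe sets. At an unadjusted p under 0.05 there were 0 members in that comparison and 1447 of all probe sets. The comparisons with IML share the same 5 IML samples and are set side by side, not counted as separate evidence. The median difference over the 10 probe sets was -0.01 against the somatic mean and -0.04 against LMN, beside -0.01 and -0.02 over all probe sets. The members thus did not move together: 2 probe sets were lower, 1 was higher and the rest were not called. The second probe sets of Scn8a and Fgf11 were among those not called.

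**Figure D1:**
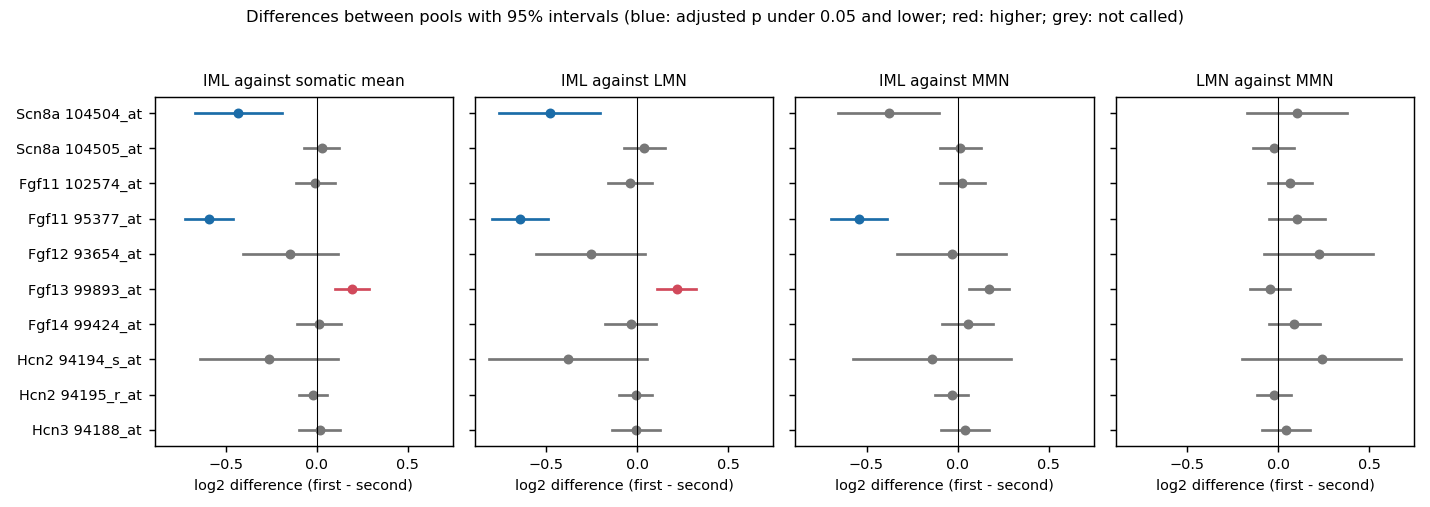
Differences in log2 intensity between pools (x axis) for each member probe set (y axis), with 95% confidence intervals from the limma fit over 5 animals; blue marks an adjusted p under 0.05 and a lower level in the first pool named, red a higher one and grey neither. Fgf11 95377_at lies left of 0 in all 3 comparisons with IML, from -0.54 to -0.64, and no member is coloured between LMN and MMN.

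Scn8a was read by probe set 104504_at at log2 levels of 6.82, 7.72, 6.88, 7.14 and 7.52 in IML of animals 1 to 5. In LMN the same animals had 7.52, 8.02, 7.55, 7.46 and 7.93, and in MMN 7.45, 7.59, 7.26, 7.95 and 7.73. The IML samples of animals 1, 3 and 4 lay below every somatic sample, while those of animals 2 and 5 lay within the somatic range. Means were 7.22 ± 0.40 in IML, 7.70 ± 0.26 in LMN and 7.59 ± 0.26 in MMN (SD, n = 5). The mean signal of this probe set was thus lowest in the autonomic pool, with IML below the somatic mean by 1.35-fold (difference -0.43 ± 0.11, SE, 95% interval -0.67 to -0.19, adjusted p = 0.0442) and below it in 5 of 5 animals. Against LMN the difference was -0.48 ± 0.13 (adjusted p = 0.0368), with the sign the same in 5 of 5 animals. Against MMN it was -0.38 ± 0.13 and missed the threshold (adjusted p = 0.264), and animal 2 went the other way by 0.14. LMN and MMN, the neighbours at the top of the order, differed by 0.10 ± 0.13, within their spread.

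The Scn8a call is close to its threshold. Without animals 1, 3, 4 and 5 in turn the adjusted p against the somatic mean ran from 0.0556 to 0.171, and without animal 2 it was 0.0265; against LMN it was 0.123, 0.152 and 0.113 without animals 1, 3 and 5. Without the LMN sample of animal 2 alone the call was also lost, with an adjusted p of 0.0774 against the somatic mean and 0.0849 against LMN. The arrays of 1 sample differed widely, with an SD of 0.35 between single arrays. The SD between animals within a pool was 0.31. It was taken on averages of 2 arrays and includes part of the array spread, so the SDs are unlike measures, here and for the other probe sets. In the MMN sample of animal 5 the arrays read 7.21 and 8.26. In the first arrays alone the difference was -0.34 (adjusted p = 0.458) and in the second arrays alone -0.52 (adjusted p = 0.0162).

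The other Scn8a probe set, 104505_at, gave 3.94, 3.87, 3.79, 3.76 and 3.84 in IML, 3.93, 3.63, 3.74, 3.82 and 3.89 in LMN, and 3.96, 3.80, 3.77, 3.77 and 3.83 in MMN. The pools overlapped throughout, and the IML difference from the somatic mean was 0.03 (95% interval -0.07 to 0.12). This interval does not reach the difference of the first probe set. Only 4.23% of probe sets had a lower mean signal, and whether 104505_at detects the transcript is unknown. The mean of both probe sets differed by -0.20 (adjusted p = 0.0869).

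Fgf11 had the smallest adjusted p of the members, in probe set 95377_at. Its IML levels were 9.00, 8.55, 8.77, 8.97 and 8.87 in animals 1 to 5. In LMN they were 9.58, 8.96, 9.58, 9.56 and 9.70, and in MMN 9.61, 8.79, 9.44, 9.44 and 9.57. Animal 2 was the lowest animal in each pool, and its somatic samples lay within the IML range; the other 8 somatic samples, from 9.44 up, all lay above the highest IML sample at 9.00. Mean levels were 8.83 ± 0.18 in IML, 9.48 ± 0.30 in LMN and 9.37 ± 0.33 in MMN (SD, n = 5). Within each animal IML was the lowest pool: it was below LMN by log2 differences of -0.58, -0.40, -0.81, -0.59 and -0.84, and below MMN by -0.61, -0.24, -0.67, -0.47 and -0.70. The smallest differences were again those of animal 2.

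Probe set 95377_at was therefore 1.51-fold lower in IML than in the somatic mean (difference -0.59 ± 0.06, SE, 95% interval -0.73 to -0.46, adjusted p = 0.000901, n = 5). A second Fgf11 probe set, described below, did not show this. By p, 95377_at ranked 9 among the 12422 probe sets in that comparison. Against LMN it was 1.56-fold lower (-0.64 ± 0.07, adjusted p = 0.000789) and against MMN 1.45-fold lower (-0.54 ± 0.07, adjusted p = 0.0122). LMN and MMN differed by 0.10 ± 0.07 (adjusted p = 0.612), within the spread. The calls against the somatic mean and LMN held without any 1 animal, with adjusted p of at most 0.0126. The call against MMN was lost without animals 1, 3, 4 or 5 (adjusted p from 0.0635 to 0.103) and held without animal 2 (0.0136). The arrays of a sample agreed closely here, with an SD of 0.10 between arrays and 0.28 between animals. The summed general motoneuron markers were also lowest in IML, with a median of 3696 against 7934 for the LMN and 6723 for the MMN samples, as they were beside Scn8a. Nefh, the brightest of the 5, weighs most in that sum. Against the somatic mean 2 of the 5 were lower in IML and 3 were not called. Among the latter Isl1 differed by 0.14 ± 0.09, higher in IML in 4 of 5 animals. The part of these markers in the Fgf11 and Scn8a results was not tested.

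**Figure D2:**
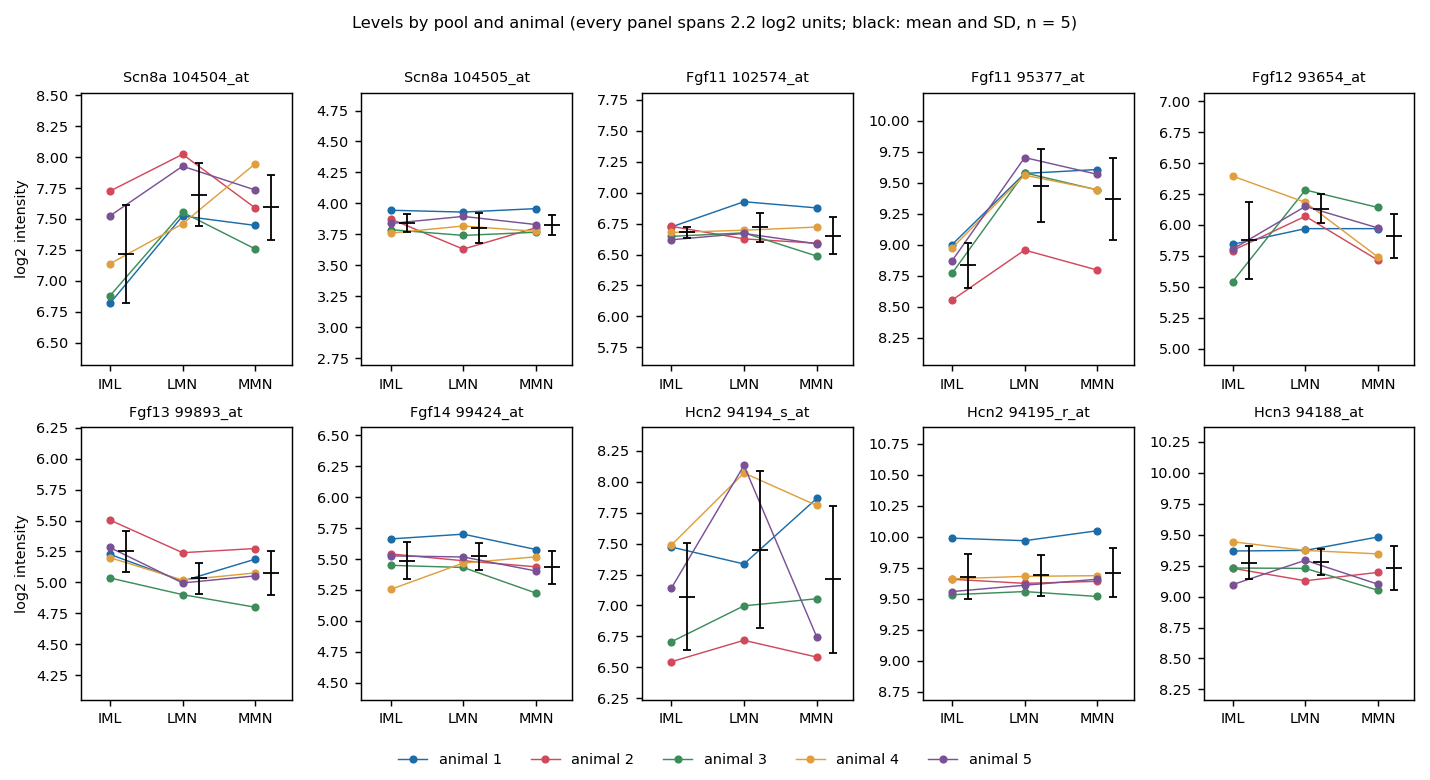
Log2 intensity (y axis) of each member probe set in the 3 pools (x axis), with 1 coloured line per animal and the mean with SD (n = 5) in black; each panel spans the same number of log2 units. The 5 lines of Fgf11 95377_at all rise from IML to LMN, those of Fgf13 99893_at all fall, and those of Hcn3 94188_at and Hcn2 94195_r_at stay nearly flat.

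A second Fgf11 probe set, 102574_at, did not show the difference. It read 6.72, 6.73, 6.65, 6.68 and 6.62 in IML, 6.93, 6.63, 6.68, 6.70 and 6.67 in LMN, and 6.88, 6.59, 6.49, 6.72 and 6.59 in MMN. The pools overlapped, with the IML samples inside the range of the MMN samples, and IML differed from the somatic mean by -0.0069 (95% interval -0.11 to 0.10). The array annotation ties 102574_at to an mRNA record and 95377_at to an expressed sequence tag, and which transcripts each detects was not tested. Over the 15 samples, each less its animal's mean, the probe sets of Fgf11 correlated at only 0.17. The mean of both was lower in IML by -0.30 (adjusted p = 0.00759) against the somatic mean and -0.26 (adjusted p = 0.0932) against MMN.

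Scn8a and Fgf11 are shown with the sequence before and just after their annotated starts because 1 probe set of each was called lower in IML. RefSeq promoter windows on GRCm38.p6, from 250 bases before to 50 after a start, held 13 entries for 6 of the 7 genes; Hcn3 had none. The Fgf11 window is chr11:69802231-69802530 on the minus strand, and the first of 2 Scn8a windows is chr15:100870395-100870694 on the plus strand. Each is written 5′ to 3′, and capitals would mark a GC box, GGGCGG on either strand, or a TATAAA on either strand.
Fgf11: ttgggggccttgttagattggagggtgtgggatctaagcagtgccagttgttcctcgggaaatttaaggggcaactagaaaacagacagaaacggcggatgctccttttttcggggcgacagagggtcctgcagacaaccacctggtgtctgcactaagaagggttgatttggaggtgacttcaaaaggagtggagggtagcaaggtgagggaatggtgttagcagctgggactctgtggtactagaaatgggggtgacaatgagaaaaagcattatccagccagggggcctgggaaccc
Scn8a: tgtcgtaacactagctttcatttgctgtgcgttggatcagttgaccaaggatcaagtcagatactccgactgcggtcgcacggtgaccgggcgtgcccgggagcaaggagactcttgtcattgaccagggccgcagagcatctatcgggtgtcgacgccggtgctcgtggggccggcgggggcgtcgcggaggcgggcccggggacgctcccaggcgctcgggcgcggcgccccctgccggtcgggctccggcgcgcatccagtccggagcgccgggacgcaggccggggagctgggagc
Neither window holds either motif, nor an E-box CACGTG or a cAMP response element TGACGTCA. Over all 32851 windows of this length, 35.7% held a GC box, 13.6% TATAAA, 7.15% CACGTG and 1.79% TGACGTCA. The windows differ in base composition, with 52.3% G and C for Fgf11 and 70.0% for Scn8a, beside a median of 52.7% over all windows. No match says only that these letters are not in this window, and the arrays do not tell which start was used.

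Fgf13 went the other way. This X-linked FHF gene is also known for a product that binds microtubules in growing neurons. Probe set 99893_at read 5.23, 5.50, 5.04, 5.20 and 5.28 in IML, 5.01, 5.24, 4.90, 5.02 and 5.00 in LMN, and 5.19, 5.27, 4.80, 5.08 and 5.05 in MMN. The ranges of the pools overlapped because animal 2 was high and animal 3 low in every pool, but IML was the highest pool in each animal. Mean levels were 5.25 ± 0.17, 5.03 ± 0.12 and 5.08 ± 0.18 in IML, LMN and MMN (SD, n = 5).

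The size of the Fgf13 difference was small: IML exceeded the somatic mean by 0.19 ± 0.04 (1.14-fold, 95% interval 0.10 to 0.29, adjusted p = 0.0255) and LMN by 0.22 ± 0.05 (adjusted p = 0.0213), in 5 of 5 animals each. IML exceeded MMN by 0.17 ± 0.05, also in 5 of 5 animals, with an adjusted p of 0.204. LMN and MMN differed by -0.04 ± 0.05. Against the somatic mean the call was lost without animals 2, 3, 4 or 5 (adjusted p from 0.0686 to 0.129) and held without animal 1 (0.0464). Against LMN it was lost without animals 2, 4 or 5 (0.0792, 0.0572 and 0.116) and without the LMN sample of animal 2 (0.0508). Only 16.7% of probe sets had a lower mean signal. Intensities lay near the floor of 32 set in a later model, from 27.8 in MMN of animal 3 to 45.4 in IML of animal 2. With that floor the difference from the somatic mean was 0.15 ± 0.03. The arrays of the IML sample of animal 2, the highest of all, read 5.21 and 5.79. Median sums of several marker lists were also highest in IML. For meningeal and fibroblast markers the median was 24086 against 10392 for the LMN and 17937 for the MMN samples, though 1 MMN sample reached 32143. For visceral motoneuron markers it was 5880 against 2180 and 2807, and for microglial ones 3745 against 2549 and 2620. Astrocyte and oligodendrocyte medians were highest in IML too, while general motoneuron, endothelial and interneuron medians were not. The part of these in the Fgf13 result was not tested.

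RefSeq places 4 start windows at Fgf13 on chromosome X, which belong to alternative first exons, and 2 are shown because they are unlike. The first below is chrX:59567299-59567598 and the second chrX:59166039-59166338, both on the minus strand. Both are written 5′ to 3′, with GGGCGG and its reverse complement CCGCCC or TATAAA in capitals.
Fgf13 site 2: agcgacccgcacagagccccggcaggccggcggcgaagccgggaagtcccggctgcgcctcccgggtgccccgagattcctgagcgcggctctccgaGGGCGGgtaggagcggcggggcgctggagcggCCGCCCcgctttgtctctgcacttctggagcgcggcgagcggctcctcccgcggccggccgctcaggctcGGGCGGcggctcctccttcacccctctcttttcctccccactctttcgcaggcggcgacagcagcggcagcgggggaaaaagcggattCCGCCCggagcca
Fgf13 site 3: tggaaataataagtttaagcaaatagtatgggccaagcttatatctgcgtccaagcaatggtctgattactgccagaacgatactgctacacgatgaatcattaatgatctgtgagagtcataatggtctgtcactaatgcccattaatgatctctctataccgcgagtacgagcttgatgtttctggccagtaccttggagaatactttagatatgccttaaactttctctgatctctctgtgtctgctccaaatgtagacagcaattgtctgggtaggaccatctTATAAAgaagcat
The first holds 4 GC boxes and 74.3% G and C, more than 95.6% of all windows, and the second holds no GC box, 1 TATAAA that lies after the start, and 40.3% G and C. Of the other members, the Fgf14 window held 2 GC boxes, the Hcn2 window 3, and 3 of the 4 Fgf12 windows 2 each. A match is a description of the sequence, and probe set 99893_at was not tied to any of these starts.

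The other FHF genes, Fgf12 and Fgf14, gave no call. Fgf12, linked in people to early infantile epilepsy through gain of function, was read by 93654_at at 5.84, 5.79, 5.54, 6.39 and 5.80 in IML, 5.97, 6.07, 6.28, 6.18 and 6.15 in LMN, and 5.97, 5.72, 6.14, 5.74 and 5.98 in MMN. The IML sample of animal 4 was the highest of all 15, with arrays at 6.11 and 6.68, and the other 4 IML samples lay below every LMN sample. IML differed from the somatic mean by -0.14 ± 0.12 (95% interval -0.40 to 0.11, adjusted p = 0.556) and from LMN by -0.26 ± 0.14 (adjusted p = 0.289), lower in 4 of 5 animals in each case. LMN was above MMN by 0.22 ± 0.14 (adjusted p = 0.572), higher in 5 of 5 animals, though in animal 1 by only 6.81e-05.

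Fgf14, whose loss or mutation causes a spinocerebellar ataxia, was read by 99424_at at 5.66, 5.54, 5.45, 5.25 and 5.53 in IML, 5.70, 5.49, 5.43, 5.47 and 5.52 in LMN, and 5.58, 5.44, 5.22, 5.52 and 5.40 in MMN. All 3 pools overlapped. The IML difference from the somatic mean was 0.01 ± 0.06 (95% interval -0.11 to 0.13), which leaves room for a change of that size in either direction, and LMN and MMN differed by 0.09 ± 0.06.

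Hcn2, whose channel responds to cAMP, had a probe set with the widest spread of the members. The suffix of 94194_s_at marks probes that several transcripts can share. Its levels were 7.47, 6.54, 6.71, 7.49 and 7.14 in IML, 7.34, 6.72, 7.00, 8.07 and 8.13 in LMN, and 7.86, 6.58, 7.05, 7.81 and 6.75 in MMN. Animal 2 was the lowest in each pool and animal 4 was at or next to the top, while animal 5 ran from 6.75 in MMN to 8.13 in LMN. IML was below the somatic mean in 5 of 5 animals, by -0.26 ± 0.17, but the interval ran from -0.64 to 0.12 and the adjusted p was 0.446. Against LMN it was -0.38 ± 0.20 (adjusted p = 0.276), against MMN -0.14 ± 0.20, and LMN was above MMN by 0.24 ± 0.20. The SD between the arrays of a sample was 0.47, beside 0.56 between animals, and in the MMN sample of animal 5 the arrays read 6.00 and 7.49. A difference as large as that of Fgf11 lies within the interval, and the power to call it with this spread was not computed.

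The other Hcn2 probe set was far tighter. Its name, 94195_r_at, carries the suffix of sets designed under relaxed rules. It read 9.99, 9.66, 9.53, 9.66 and 9.56 in IML, 9.97, 9.62, 9.56, 9.68 and 9.61 in LMN, and 10.05, 9.64, 9.52, 9.69 and 9.66 in MMN. Animal 1 was the highest in every pool, and the pools otherwise coincided. IML differed from the somatic mean by -0.02 ± 0.04 (95% interval -0.10 to 0.06). Over the 15 samples less their animals' means the Hcn2 probe sets correlated at 0.06, so they did not report the same variation.

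Hcn3, a subunit that cAMP affects little, was read by 94188_at at 9.37, 9.23, 9.23, 9.44 and 9.10 in IML, 9.37, 9.13, 9.23, 9.37 and 9.29 in LMN, and 9.48, 9.20, 9.05, 9.34 and 9.10 in MMN. The pools overlapped throughout. The IML difference from the somatic mean was 0.02 ± 0.05 (95% interval -0.10 to 0.13), and LMN and MMN differed by 0.04 ± 0.06. For both this probe set and 94195_r_at the intervals exclude a difference of the size seen for Fgf11.

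**Figure D3:**
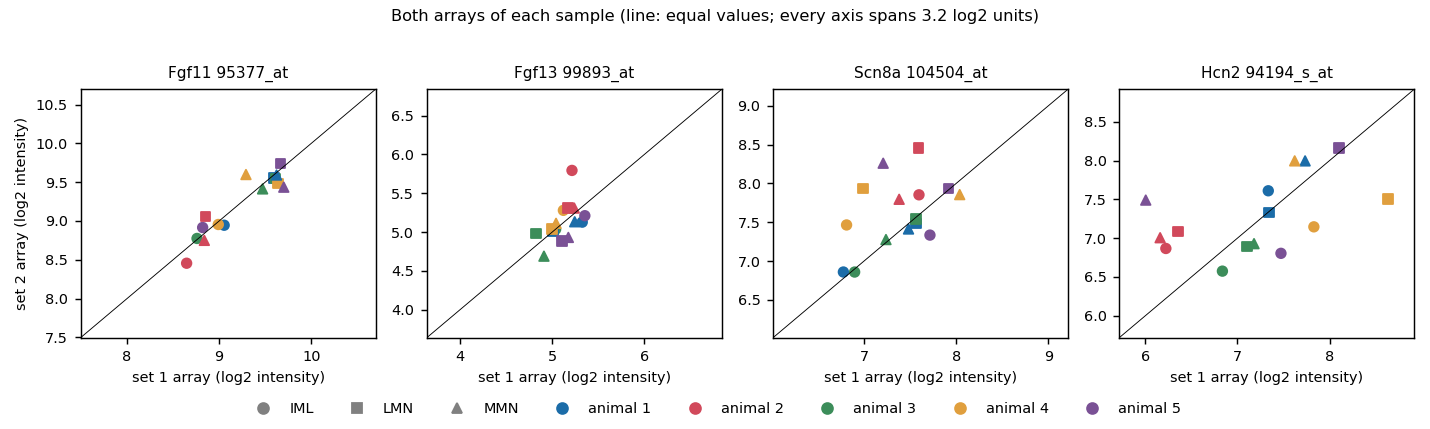
Log2 intensity of the second array (y axis) against the first array (x axis) of each sample for 4 member probe sets; symbols mark pools, colours mark animals, the line marks equal values and every axis has the same length. Fgf11 95377_at lies along the line, while Hcn2 94194_s_at and Scn8a 104504_at scatter by up to 1.49 and 1.05.

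The spread between the arrays of a sample differed from member to member. The SD between them was at most 0.15 for Fgf13 99893_at and the probe sets of Fgf14, Hcn3, Fgf11, 104505_at of Scn8a and 94195_r_at of Hcn2. It was 0.19 for Fgf12. The SE of the difference between IML and the somatic mean was 0.12 for Fgf12 and 0.17 for Hcn2 94194_s_at, beside 0.04 to 0.06 for the probe sets named before Fgf12.

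Called members were set beside each other and beside the rest of the array as a description. Over the 15 samples less their animals' means, Scn8a 104504_at and Fgf11 95377_at correlated at 0.81, and Fgf13 99893_at at -0.84 with Fgf11 and -0.58 with Scn8a. These values include the difference between pools that each gene shows, and the genes were read on the same arrays from the same amplified RNA. By the same measure the genes most like Fgf11 were Ttc39b (0.99), the SNARE gene Ykt6 (0.96) and the protamine gene Prm2 (0.96). Most like Scn8a were Vps26c (0.95), Gas6, a ligand of TAM receptors (0.94), and Thoc3 (0.93). Most like Fgf13 were Slc9b2 (0.95), the neuronal CaM kinase gene Pnck (0.93) and the Rab GTPase gene Rab8a (0.93).

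Among genes that work with these channels, the axon initial segment and node proteins held the largest called difference. Of 20 listed, 12 were measured, and against LMN 3 were lower in IML, 0 higher and 9 not called, where 3.53% of all probe sets were lower and 5.46% higher. Kcna1, a potassium channel beside the node, was lower than in LMN by 1.02 ± 0.14 (SE; adjusted p = 0.00254) and lower than the somatic mean by 0.77 ± 0.12 (adjusted p = 0.00776), the 1 call of this list there. Mapre3, an end-binding protein of microtubules, and Dlg4, the scaffold PSD-95, differed from LMN by -0.48 ± 0.11 (adjusted p = 0.0244) and -0.27 ± 0.07 (adjusted p = 0.0433). Ank3, which encodes the ankyrin G that anchors sodium channels at the initial segment, differed from LMN by 0.14 ± 0.19 and was not called. The list's median difference was -0.11 against LMN, beside -0.02 over all probe sets.

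Of 10 other sodium channel alpha subunit genes 5 were measured. Beside 3.53% of all probe sets, 1 of the 5 was lower in IML than in LMN. It was Scn1a, which encodes Nav1.1, lower by 0.30 ± 0.07 (SE, adjusted p = 0.0250). The other 4 were not called; Scn10a, a channel of sensory neurons, had the widest value at 1.01 ± 0.56 (adjusted p = 0.314). Against the somatic mean 0 of the 5 passed, beside 5.52% of all probe sets. None of the 4 beta subunit genes and none of the 4 listed genes of other HCN channels and their partners had a probe set of its own. Among 14 sodium channel regulators 8 were measured, and 0 were called in any comparison. Of all probe sets 5.52% were called against the somatic mean and 8.98% against LMN. The shares were 0.346% against MMN and 0.0564% between LMN and MMN. With so few genes, 0 calls is near these shares.

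**Figure D4:**
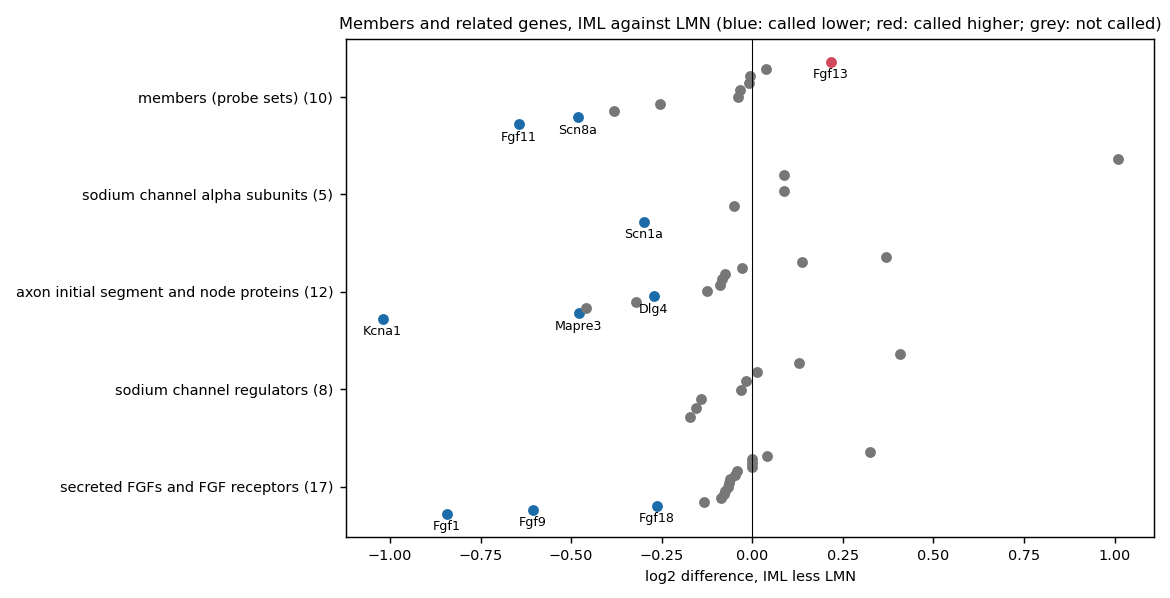
Log2 difference of IML less LMN (x axis) for the 10 member probe sets and for the measured genes of each related list (rows, with their number), 1 point per probe set or gene; blue marks called lower in IML, red called higher and grey not called, by an adjusted p of 0.05. The 7 called related genes all lie left of 0, from -0.26 for Fgf18 to -1.02 for Kcna1, and Fgf13 is the single red point.

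The secreted fibroblast growth factors and their receptors, relatives of the FHF genes by sequence, had 17 of 23 genes measured. Against LMN 3 were lower in IML, 0 higher and 14 not called, where 3.53% of all probe sets were lower and 5.46% higher. Fgf1 differed by -0.84 ± 0.23 (adjusted p = 0.0420), Fgf9 by -0.61 ± 0.17 (adjusted p = 0.0490) and Fgf18 by -0.26 ± 0.06 (adjusted p = 0.0217). Against the somatic mean Fgf18 alone passed, at -0.22 ± 0.05 (adjusted p = 0.0391), while Fgf1 stood at -0.67 ± 0.20 (adjusted p = 0.0753) and Fgf9 at -0.53 ± 0.15 (adjusted p = 0.0603). Over the related lists together, 42 of 75 genes were measured; against LMN 7 were lower and 0 higher, beside 3.53% and 5.46% of all probe sets. Against the somatic mean 2 were lower and 0 higher, beside 2.09% and 3.44% of all. Against MMN, and between LMN and MMN, 0 were called, beside 0.346% and 0.0564% of all. For these lists and the markers each gene was read by its brightest probe set, while the shares cover all probe sets, dim ones too. The bases are thus unlike. With dim probe sets left out, 842 of 6211 were called against LMN in either direction, beside 1116 of 12422 over all.

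Whether the called differences depend on the model was examined for Fgf11, Scn8a and Fgf13. For Fgf11 95377_at the difference from LMN stayed between -0.60 and -0.70 over 15 other models and was called in 14 of them. Against the somatic mean it was called in 13 of 14, and against MMN in 8 of 15. Scn8a 104504_at kept its sign in the same 15, from -0.36 to -0.60, and its call in 8; against the somatic mean the call held in 6 of 14. Fgf13 99893_at kept its sign against LMN in 14, from 0.18 to 0.24, and its call in 6. Against the somatic mean the call held in 5 of 13. Those 5 include the fit with the floor of 32 on intensity, near which this probe set lies. These counts leave out the mean over a gene's probe sets, which gave -0.34 (adjusted p = 0.00453) for Fgf11 and -0.22 (adjusted p = 0.0832) for Scn8a against LMN. Without the animal as a term no member was called.

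**Figure D5:**
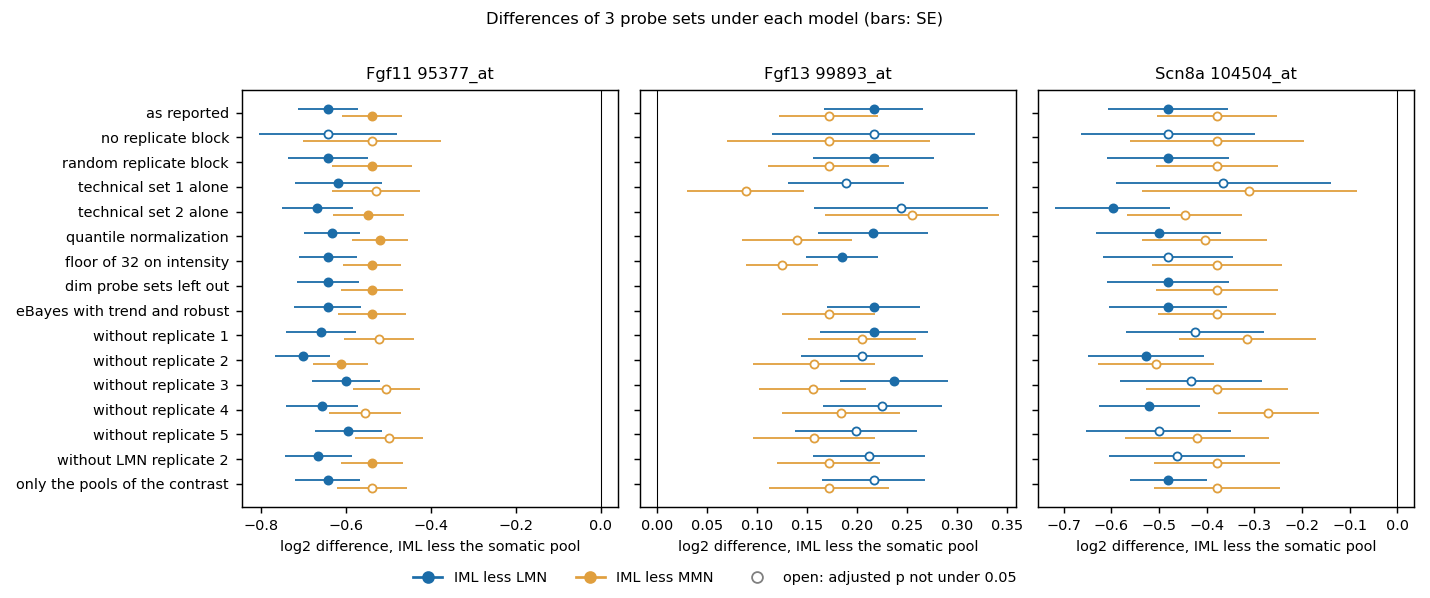
Log2 difference of IML less LMN (blue) and of IML less MMN (yellow) on the x axis, with SE bars, for 3 probe sets under each model on the y axis; filled points have an adjusted p under 0.05. Every point of Fgf11 and Scn8a lies below 0 and every point of Fgf13 above 0, while the blue Fgf11 points are filled in all rows but the one without a replicate block; Fgf13 has no value where dim probe sets are left out.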

How the data were processed

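The deposited values are linear intensity values that the authors, per the labels, normalized with R-pack and returned as inverse logs; its method is not given in the sources used here. Array medians ran from 132 to 146. Amplification in 2 rounds favours 3′ ends and adds spread, which the paired arrays measure. The table held 12488 probe sets; 66 controls were left out. Symbols came from the platform annotation. For 10817 probe sets of a single gene the identifier matched a RefSeq table of GRCm38.p6, whose symbol was used, changed or not. The log2 of each value was used without an offset, the 2 arrays of a sample were averaged, and a linear model with pool and animal was fitted with limma 3.58.1 (R 4.3.3), two-sided, with Benjamini-Hochberg adjustment over 12422 probe sets and a threshold of 0.05. The steps were tested on simulated data.

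Per the labels, each animal gave every pool. The Pair number in the sample labels was taken as the animal and entered as a fixed term (a replicate block). Without this term 0 members were called against the somatic mean. With each pool's mean taken out, same-animal samples deviated together in 15 of 15 pairs, with correlations from 0.288 to 0.747. Samples of different animals were not compared, so these values do not show what the samples of 1 Pair number share. The 2 arrays of a sample share 1 RNA extract and were not counted as replicates. The array number limits the precision.

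The members and lists were chosen with earlier results of these data known. Every member probe set is described; from each list at most 4 called genes with the smallest p are named, each by its brightest probe set, and Ank3 and Scn10a were named after their values were seen, as were Fgf1 and Fgf9 against the somatic mean. For called members, the 3 genes with the highest correlation over 15 samples less animal means are named. The alternatives changed the block, the arrays used, scaling, floor, filter, variance model and samples, or averaged a gene's probe sets.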

Additional observations from a re-analysis of the deposited data

Results flagged for a closer look

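In 4 of the 30 sets of 5 samples (10 probe sets in 3 pools), the highest or lowest animal stood apart from the others by Dixon's criterion, which chance meets in about 1 in 20. For Fgf11 95377_at the sample of animal 2 was low in both somatic pools: it read 8.96 in LMN, where the nearest sample was 9.56, and 8.79 in MMN, where the nearest was 9.44. Its arrays agreed, at 8.85 and 9.06 in LMN and 8.84 and 8.75 in MMN. For Fgf11 102574_at the LMN sample of animal 1 was high at 6.93, with the nearest at 6.70. For Hcn2 94195_r_at the IML sample of animal 1 was high at 9.99, with the nearest at 9.66. Animal 1 also had the highest level of that probe set in LMN and MMN.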

How the results depend on the processing

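No called member difference reversed its direction under the 16 alternatives, and of 570 refitted differences of member probe sets 42 changed sign, each of them not called in either fit. Counts of calls are given for IML against the somatic mean, IML against LMN, IML against MMN, and LMN against MMN in that order. As reported, 686, 1116, 43 and 7 of all probe sets and 3, 3, 1 and 0 members were called. Without the replicate block these were 46, 135, 4 and 0, with 0 members in each. With a random replicate block they were 836, 1248, 67 and 4, with 3, 3, 1 and 0 members. The first arrays alone gave 304, 601, 9 and 5, with 1, 1, 0 and 0 members, and the second arrays alone 619, 713, 58 and 3, with 2, 2, 1 and 0 members. A floor of 32 on intensity gave 282, 717, 10 and 8. Leaving out dim probe sets, which kept 5 of the 10 members, gave 540, 842, 35 and 4. Fits of only the pools compared gave 705, 6 and 67 for the last 3 comparisons, with 2, 0 and 0 members. Leaving out 1 animal at a time gave 164 to 650, 371 to 935, 0 to 42 and 0 to 5, with 1 to 2, 1 to 2, 0 to 1 and 0 members. Without the LMN sample of animal 2 they were 529, 871, 21 and 10, with 2, 1, 1 and 0 members. The causes of these changes were not tested. Fits that left out samples or arrays also held fewer of them. Fgf11 95377_at lost its call without the block, at -0.59 (adjusted p = 0.0842) against the somatic mean and -0.64 (0.0738) against LMN. Fgf13 99893_at lost its call against the somatic mean with quantile normalization (0.18, adjusted p = 0.0528), with the first arrays alone (0.14, 0.200) and with the second (0.25, 0.0778). Scn8a 104504_at lost it with the floor (-0.43, 0.0982). Quantile normalization moved the median difference of all probe sets by less than 0.1. Without detection calls, whether dim probe sets such as Scn8a 104505_at and Fgf13 99893_at lie above background is unknown. The number of animals, 5, limits the precision of every difference.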
